A study of Mus musculus with 3 samples.

Results

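Polycomb repressive complex 1 (PRC1) is the chromatin complex that places ubiquitin on histone H2A. The 9 genes described here encode subunits of it: Bmi1, Ring1, Rnf2, Pcgf1, Pcgf5, Pcgf6, Cbx2, Cbx7 and Cbx8. They were taken by symbol from the 32285 genes of the count matrices, and all 9 were found. The RNA came from Lin-KIT+ blood progenitors of the liver of newborn mice (postnatal day 0), in which RNA and surface proteins were read from the same cells (CITE-seq). There were 3 libraries, 1 per group: MLL-ENL mice with Skida1 deleted, MLL-ENL mice, and Control mice that are labelled only as such. MLL-ENL is a leukaemia-associated fusion protein, and both fusion libraries carry it. The sources used here do not state the promoter that drives the fusion, which part of Skida1 was deleted, the strain, or the number and sex of the animals.

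PRC1 is built around a RING protein, RING1 or RNF2, paired with a PCGF protein that sets the type of complex. BMI1 is a PCGF protein of canonical PRC1, in which a CBX protein binds methylated histone H3 left by Polycomb repressive complex 2. PCGF1, PCGF5 and PCGF6 belong to variant complexes without a Polycomb CBX protein such as CBX2, CBX7 or CBX8. In mouse blood formation, BMI1 is known for keeping haematopoietic stem cells self-renewing, CBX7 for a similar role, and CBX8 for accompanying their differentiation. In human and mouse MLL fusion leukaemia cells, CBX8 is also known as a partner of the ENL and AF9 proteins.

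The kept cells numbered 9404 in the Skida1-deleted library, 10154 in MLL-ENL and 5386 in Control, with a median of 17299 UMIs per cell in the Skida1-deleted library, 14704.5 in MLL-ENL and 28013 in Control (unique molecular identifiers, each counting 1 captured RNA molecule). UMIs were summed over each of 5 lineages, named from marker genes: stem-like, granulocyte, megakaryocyte, erythroid and basophil-mast. Levels are UMIs per 1000000 gene UMIs of the lineage (CPM), so levels are compared within a gene and not between genes. With 1 library per group there is no spread between animals and no test: the 95% intervals, exact Poisson for a level and exact conditional binomial for a fold, cover counting error only. A gene is called higher or lower where the ratio of (CPM + 1) is at least 1.5-fold. Of the cell barcodes, between 12 and 21 were shared by any pair of libraries, at most 0.28% of the smaller library. Skida1 itself, in stem-like cells, was at 2.10 CPM in the Skida1-deleted library, 18.4 CPM in MLL-ENL and 0.944 CPM in Control. The Y-linked gene Ddx3y was at 55.1 CPM in erythroid cells of the Skida1-deleted library and had 0 UMIs in those of MLL-ENL and of Control, so sex and Skida1 deletion cannot be told apart.

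The lineages did not consist of the same clusters in the 3 libraries. Of the 1838 stem-like cells of the Skida1-deleted library, 659 were in cluster 16 and 1161 in cluster 17, and of the 1376 of MLL-ENL 398 and 929 were in these clusters. Of the 1205 of Control, 427 were in cluster 5 and 760 in cluster 6. Control erythroid cells lay almost wholly in clusters 0 to 3, and those of the fusion libraries in clusters 12, 13, 14, 21, 23 and 24. Cluster 23 held 2479 of the 6335 erythroid cells of MLL-ENL but 78 of the 4613 of the Skida1-deleted library. Over all libraries, Cbx8 was at 1.81 CPM in cluster 23 and at 0 to 0.752 CPM in the other fusion clusters. Pcgf5 was at 44.6 CPM in cluster 23 and at 24.8 to 37.6 CPM in those others. These levels rest on 541 Pcgf5 UMIs in the 2561 cells of cluster 23, beside 2313 in the 2702 cells of cluster 13. Cluster 23 thus held few UMIs per cell and weighs less in the sums than its number of cells. Most fusion granulocyte cells lay in cluster 10 and most Control ones in cluster 9. The granulocyte markers in them summed to 10530 CPM in the Skida1-deleted library and 8562 CPM in MLL-ENL, against 24360 CPM in Control. The stem-like markers in granulocyte cells summed to 2118 CPM in the Skida1-deleted library, 2081 CPM in MLL-ENL and 1044 CPM in Control. In basophil-mast cells the markers of that lineage summed to 1749 CPM in the Skida1-deleted library, 3396 CPM in MLL-ENL and 5296 CPM in Control. The stem-like markers were all detected in each library's stem-like cells, at sums of 4053 CPM in the Skida1-deleted library, 4331 CPM in MLL-ENL and 4665 CPM in Control. Megakaryocyte and basophil-mast cells came mostly from clusters that all 3 libraries filled (4 and 11, and 8). The part of these differences in the ratios below was not tested, and values within clusters 4, 8, 9 and 11, which all 3 libraries filled, are given for Cbx8 in full and for part of the other members. The fusion libraries were not compared within clusters 10, 16 and 17. Over all libraries, Cbx8 was at 4.69 CPM in cluster 16 and 12.2 CPM in cluster 17.

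The member that differed in most lineages was Cbx8, on chromosome 11 at chr11:119036303-119040913 (GRCm38.p6, ENSMUSG00000025578). The 250 bases before its start are shown first, beside those of Bmi1, a member with no call in any of the summed lineages, so that both can be read against the values that follow. The sequences are from RefSeq (GRCm38.p6), which had an entry for 7 of the 9 members, read 5′ to 3′ on the strand of the gene, at chr11:119040914-119041163 (minus strand) for Cbx8 and chr2:18676768-18677017 (plus strand) for Bmi1. Capitals mark matches on either strand to the cAMP response element TGACGTCA, the E-box CACGTG, the CCAAT box CCAAT and the GC box GGGCGG, of which adjoining or overlapping matches run together.
Cbx8: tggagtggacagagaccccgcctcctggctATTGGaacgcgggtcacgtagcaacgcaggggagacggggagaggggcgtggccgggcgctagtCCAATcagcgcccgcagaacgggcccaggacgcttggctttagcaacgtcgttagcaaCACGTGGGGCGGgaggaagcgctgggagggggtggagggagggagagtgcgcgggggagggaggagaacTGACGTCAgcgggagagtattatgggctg
Bmi1: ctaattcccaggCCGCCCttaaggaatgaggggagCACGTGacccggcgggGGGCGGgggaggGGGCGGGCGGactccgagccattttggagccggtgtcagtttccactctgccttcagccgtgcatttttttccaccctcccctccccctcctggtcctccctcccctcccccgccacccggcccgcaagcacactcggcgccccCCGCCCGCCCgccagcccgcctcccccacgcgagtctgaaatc

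The Cbx8 window held 1 full cAMP response element, which began 29 bases before the start, and 1.55% of the 32851 promoter windows of this length hold one. It also held 1 E-box (6.02% of windows hold at least 1), 1 GC box (32.7%) and 2 CCAAT boxes (33.8%). The Bmi1 window held 1 E-box and 6 GC boxes. Of the members with an entry, Cbx8 and Bmi1 were those with an E-box, and Cbx8 the one with a full cAMP response element. Both windows were rich in CG dinucleotides, 22 in Cbx8 and 21 in Bmi1, against a median of 6 over all windows. These are matches of letters and say nothing of what binds there.

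Cbx8 was lowest in the Skida1-deleted library and highest in Control in all 5 lineages. In stem-like cells Cbx8 was at 6.47 CPM in the Skida1-deleted library, 10.4 CPM in MLL-ENL and 13.5 CPM in Control, on 120 UMIs in the Skida1-deleted library, 159 in MLL-ENL and 271 in Control. In granulocyte cells it was at 2.82 CPM in the Skida1-deleted library, 7.76 CPM in MLL-ENL and 8.02 CPM in Control. The intervals of the last pair overlap almost wholly, so in granulocyte cells the low library was the Skida1-deleted one. In megakaryocyte cells Cbx8 was at 1.54 CPM in the Skida1-deleted library, 2.48 CPM in MLL-ENL and 7.98 CPM in Control. In erythroid cells it was at 0.539 CPM in the Skida1-deleted library, 0.835 CPM in MLL-ENL and 3.03 CPM in Control. Here both fusion libraries were low and their intervals reached no higher than 1.01 CPM in erythroid and 3.71 CPM in megakaryocyte cells. In basophil-mast cells Cbx8 was at 2.79 CPM in the Skida1-deleted library, 4.77 CPM in MLL-ENL and 7.25 CPM in Control, on 11 UMIs in the Skida1-deleted library, 17 in MLL-ENL and 19 in Control.

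**Figure D1:**
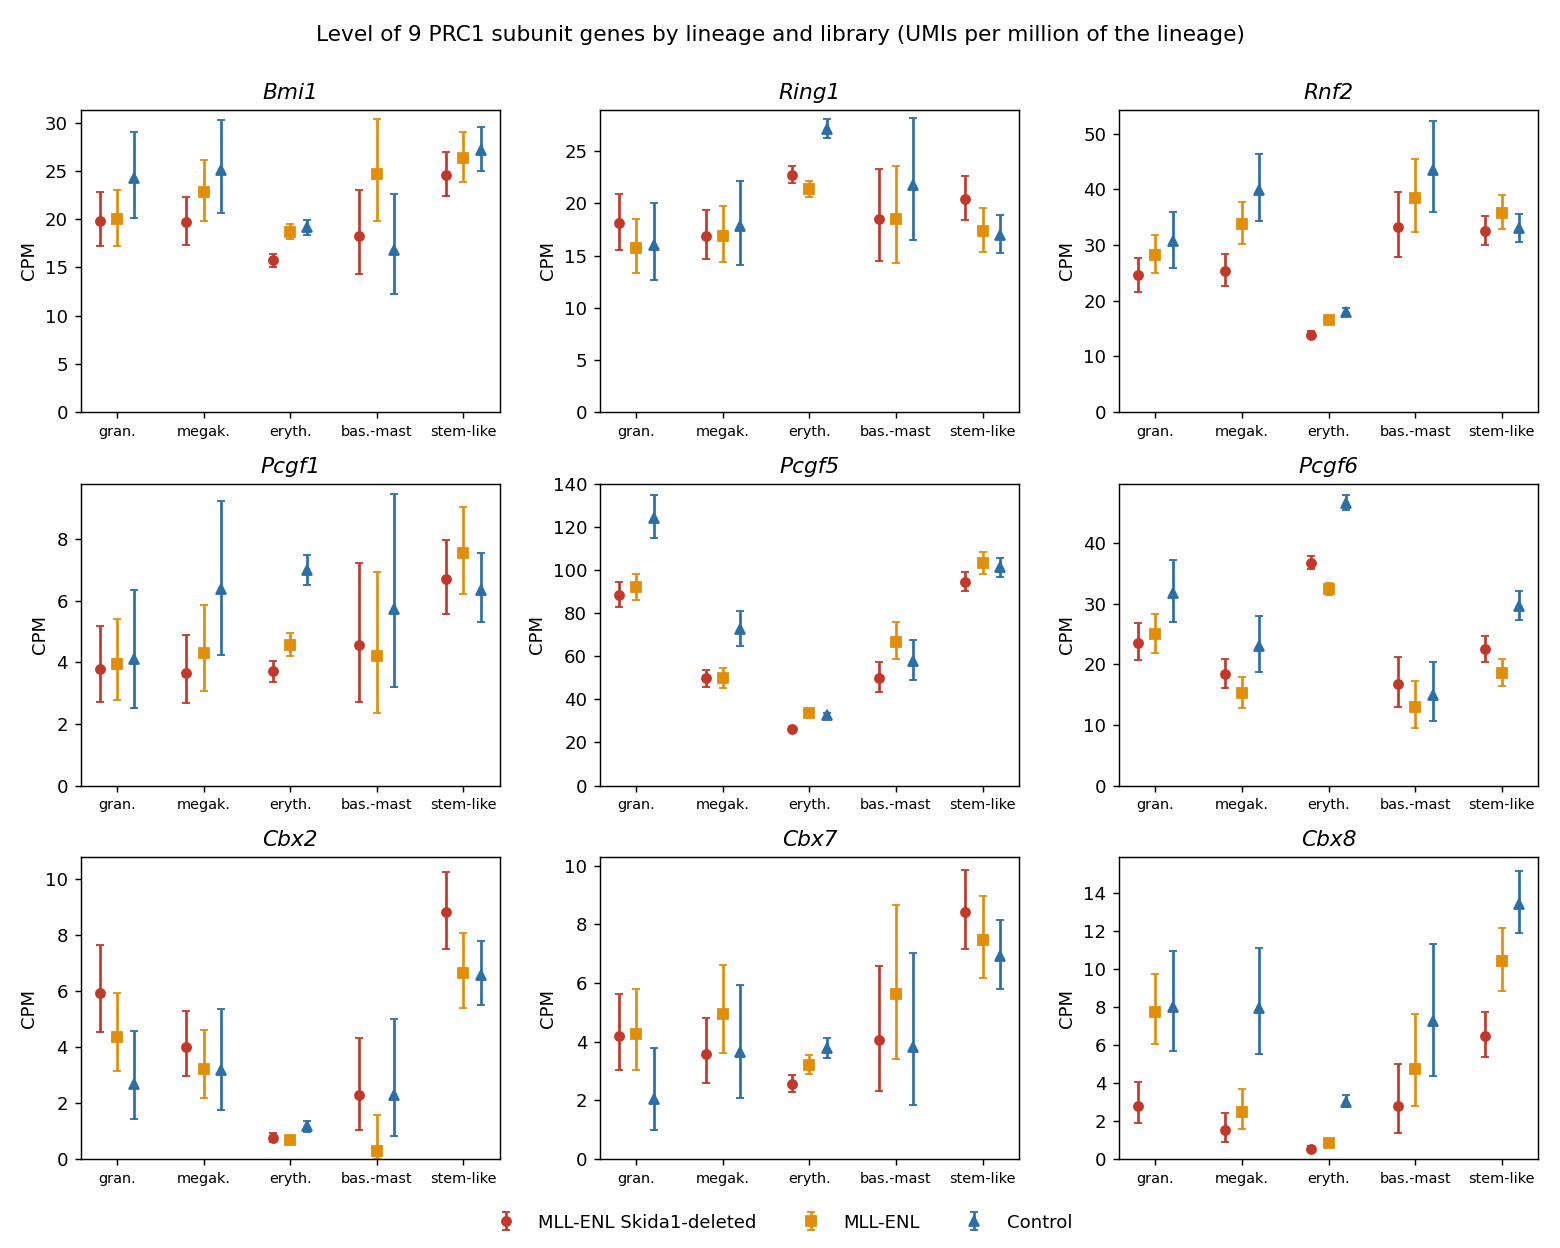
Level of each of the 9 genes in CPM (vertical axis, from 0) in the 5 lineages (horizontal axis), with a point for each library and exact Poisson 95% intervals that cover counting error only. In the Cbx8 panel the Skida1-deleted library is the lowest and Control the highest in each lineage, with 6.47 CPM in the Skida1-deleted library and 13.5 CPM in Control in stem-like cells, while the Bmi1 panel stays between 15.7 and 27.2 CPM.

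For MLL-ENL over Control, the fold of Cbx8 was 0.276 (95% interval 0.2200 to 0.343) in erythroid cells and 0.310 (0.175 to 0.540) in megakaryocyte cells, both called lower. Over alternative ways of processing, the erythroid call held under 13 of 15 and the megakaryocyte call under 15 of 16. The fold was 0.774 (0.633 to 0.945) in stem-like cells, 0.657 (0.321 to 1.34) in basophil-mast cells and 0.967 (0.647 to 1.47) in granulocyte cells, none of them called. Over all genes at 5 CPM or more in either library, 10.5% were called lower in erythroid and 15.1% in megakaryocyte cells of MLL-ENL. Erythroid Cbx8 lay under that minimum in both libraries, at 361 UMIs in Control.

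For the Skida1-deleted library over MLL-ENL, Cbx8 was at 0.364-fold (0.228 to 0.566) in granulocyte cells and 0.621-fold (0.486 to 0.792) in stem-like cells, both called lower. The granulocyte call held under 16 of 16 alternatives and the stem-like call under 13 of 16. Between these libraries 1.49% of the genes measured in granulocyte cells and 1.15% of those measured in stem-like cells were called lower. It was at 0.645-fold (0.469 to 0.881) in erythroid cells, not called since the level is near the added 1 CPM, and at 0.624-fold (0.321 to 1.20) in megakaryocyte cells. In basophil-mast cells the fold was 0.585 (0.248 to 1.32), called lower on 11 against 17 UMIs with an interval that holds 1, where 4.6% of the genes were called lower. That call held under 7 of 14 alternatives. Basophil-mast Cbx8 lay under the minimum of 5 CPM for those genes in both libraries. For the Skida1-deleted library over Control, Cbx8 was called lower in all 5 lineages, at 0.178-fold (0.135 to 0.230) in erythroid, 0.194-fold (0.105 to 0.348) in megakaryocyte, 0.352-fold (0.210 to 0.584) in granulocyte, 0.384-fold (0.165 to 0.850) in basophil-mast and 0.481-fold (0.385 to 0.598) in stem-like cells, where 15.7% to 22.7% of the genes of a lineage were called lower. The erythroid call held under 14 of 15 alternatives and the others under all, and erythroid Cbx8 again lay under the minimum of 5 CPM. This last comparison shares a library with each of the other two. In bulk sums of this kind, fewer cells with Cbx8 RNA and less RNA per cell cannot be told apart.

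Within clusters that all 3 libraries filled, Cbx8 could be compared between cells of like profile. In granulocyte cluster 9 Cbx8 was at 2.40 CPM in the Skida1-deleted library, 9.10 CPM in MLL-ENL and 8.24 CPM in Control. The Skida1-deleted library was the low one there, at 0.264-fold (0.0966 to 0.623) of MLL-ENL. In megakaryocyte cluster 11 Cbx8 was at 0.762 CPM in the Skida1-deleted library, 2.81 CPM in MLL-ENL and 9.73 CPM in Control, and the fold was 0.271 (0.0877 to 0.722) for the Skida1-deleted library over MLL-ENL and 0.289 (0.147 to 0.552) for MLL-ENL over Control. Megakaryocyte cluster 4 had another order, with 2.93 CPM in the Skida1-deleted library, 1.85 CPM in MLL-ENL and 5.25 CPM in Control, on 13 UMIs in the Skida1-deleted library, 6 in MLL-ENL and 9 in Control. In basophil-mast cluster 8 Cbx8 was at 2.81 CPM in the Skida1-deleted library, 4.64 CPM in MLL-ENL and 7.55 CPM in Control.

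Cbx8 also varied with the called phase of the cell cycle, and the libraries differ in phase. Of the stem-like cells, 57.4% were called G1 in the Skida1-deleted library, 64.1% in MLL-ENL and 34.5% in Control. In each library stem-like Cbx8 was higher in G1 than in S cells, by 2.61-fold (1.59 to 4.46) in the Skida1-deleted library, 2.66-fold (1.68 to 4.38) in MLL-ENL and 1.73-fold (1.28 to 2.35) in Control. Within phases the order of the libraries was as in the sums. Stem-like G1 cells had 10.8 CPM of Cbx8 in the Skida1-deleted library, 15.4 CPM in MLL-ENL and 21.0 CPM in Control. Stem-like S cells had 4.15 CPM in the Skida1-deleted library, 5.78 CPM in MLL-ENL and 12.1 CPM in Control. Stem-like G2M cells had 3.66 CPM in the Skida1-deleted library, 7.10 CPM in MLL-ENL and 10.7 CPM in Control. The fold of MLL-ENL over Control was then 0.733 (0.548 to 0.981) in G1, 0.478 (0.288 to 0.763) in S and 0.661 (0.427 to 0.999) in G2M cells. That of the Skida1-deleted library over MLL-ENL was 0.705 (0.517 to 0.958) in G1, 0.719 (0.378 to 1.36) in S and 0.515 (0.290 to 0.902) in G2M cells. In erythroid cells the G2M level was 0.441 CPM in the Skida1-deleted library, 0.679 CPM in MLL-ENL and 3.07 CPM in Control.

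**Figure D2:**
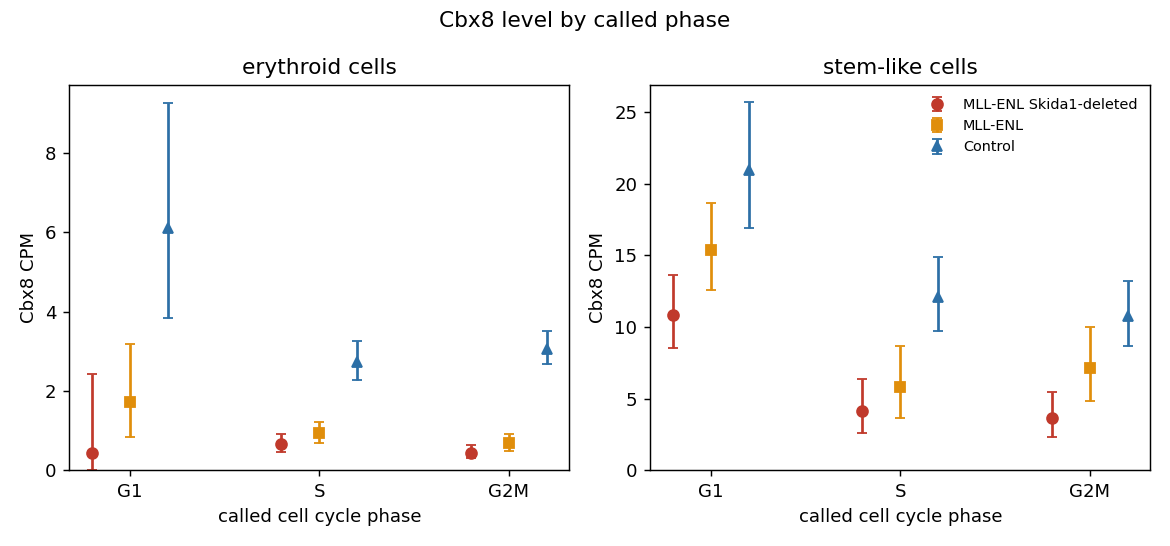
Cbx8 level in CPM (vertical axis, from 0) by called cell cycle phase (horizontal axis) in erythroid and stem-like cells of each library, with exact Poisson 95% intervals for counting error. In stem-like cells the level is highest in G1 in each library, and in every phase Control is above MLL-ENL and MLL-ENL above the Skida1-deleted library (in G1, 10.8 CPM in the Skida1-deleted library, 15.4 CPM in MLL-ENL and 21.0 CPM in Control).

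Few cells held a Cbx8 UMI. At full depth 118 of the 1838 stem-like cells held one in the Skida1-deleted library, 148 of 1376 in MLL-ENL and 241 of 1205 in Control. With each cell thinned to 3000 UMIs the share was 2.58% in the Skida1-deleted library (exact Clopper-Pearson 95% interval 1.91 to 3.42), 4.07% in MLL-ENL (3.09 to 5.26) and 3.93% in Control (2.90 to 5.19). Shallower cells left out numbered 19 in the Skida1-deleted library, 1 in MLL-ENL and 9 in Control. A difference between MLL-ENL and Control was not detectable at that depth in stem-like cells. In erythroid cells the thinned shares were 0.183% (0.0792 to 0.361) in the Skida1-deleted library, 0.451% (0.292 to 0.665) in MLL-ENL and 0.794% (0.520 to 1.16) in Control, leaving out 252 cells of the Skida1-deleted library, 795 of MLL-ENL and 35 of Control. At full depth they were 1.45% in the Skida1-deleted library, 1.66% in MLL-ENL and 10.2% in Control. No lineage here is known to lack Cbx8, so the share that free RNA gives was not measured, and such low shares may hold some.

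**Figure D3:**
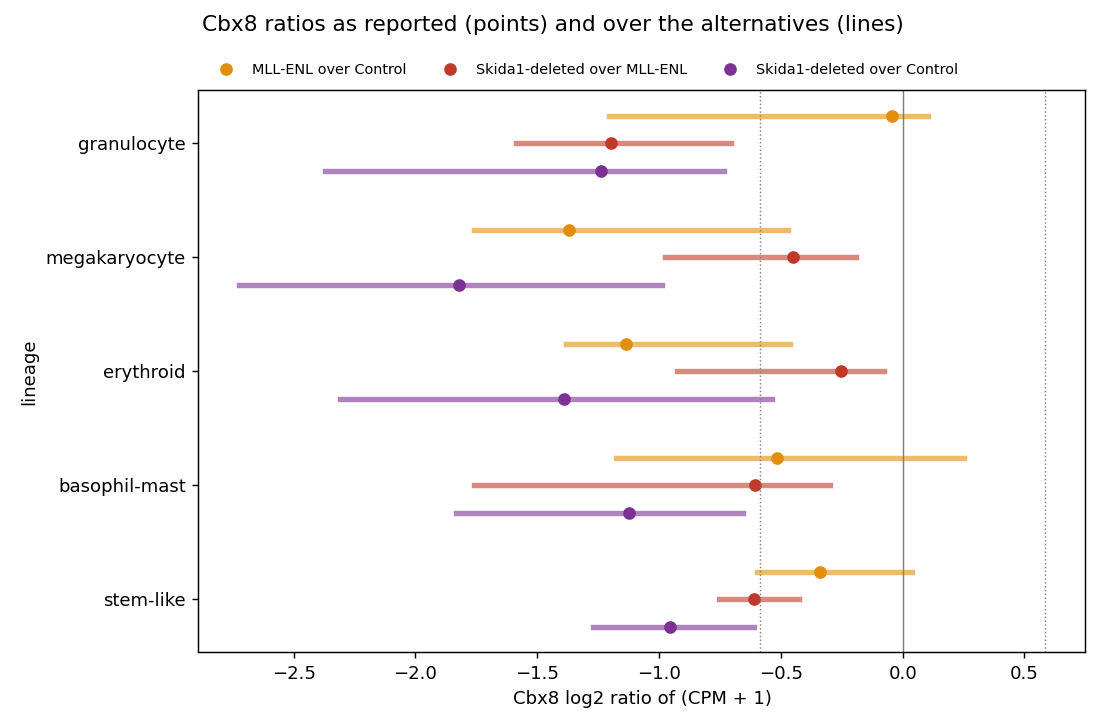
Cbx8 log2 ratio of (CPM + 1) in each lineage (vertical axis) for the 3 comparisons, with points for the values reported and lines from the lowest to the highest value over the alternative ways of processing; dotted lines mark 1.5-fold. The lines of both comparisons of the Skida1-deleted library stay below 0 in each lineage, while those of MLL-ENL over Control cross 0 in granulocyte (-1.21 to 0.104), basophil-mast and stem-like cells.

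Among the other CBX genes, Cbx2 lies next to Cbx8 on chromosome 11, with 5028 bases between them. The order of the libraries by Cbx2 level was not that of Cbx8 in any of the 5 lineages. In mouse, CBX2 is known for compacting chromatin. Stem-like Cbx2 was at 8.79 CPM in the Skida1-deleted library, 6.62 CPM in MLL-ENL and 6.56 CPM in Control. Its level was thus highest where that of Cbx8 was lowest, with a fold of 1.33 (1.03 to 1.72) for the Skida1-deleted library over MLL-ENL, not called, and 1.01 (0.772 to 1.32) for MLL-ENL over Control. In granulocyte cells Cbx2 was at 5.93 CPM in the Skida1-deleted library, 4.36 CPM in MLL-ENL and 2.67 CPM in Control, and the Skida1-deleted library was called higher than Control at 2.22-fold (1.21 to 4.40), on 13 UMIs in Control. That call held under 10 of 16 alternatives, and the direction turned with coarser clusters. Within granulocyte cluster 9 Cbx2 was at 3.08 CPM in the Skida1-deleted library, 1.75 CPM in MLL-ENL and 2.90 CPM in Control, and the fold of the Skida1-deleted library over Control was 1.06 (0.402 to 2.69). Megakaryocyte Cbx2 was at 3.98 CPM in the Skida1-deleted library, 3.23 CPM in MLL-ENL and 3.19 CPM in Control, with no call. In erythroid cells Cbx2 was below Control in both fusion libraries, as Cbx8 was, with 0.765 CPM in the Skida1-deleted library, 0.672 CPM in MLL-ENL and 1.17 CPM in Control. The erythroid fold of MLL-ENL over Control was 0.575 (0.434 to 0.758), with no call. The lack of a call held under 14 of 15 alternatives, and the direction under all 15. In basophil-mast cells Cbx2 had 9 UMIs in the Skida1-deleted library, 1 in MLL-ENL and 6 in Control. The calls there, 0.122-fold (0.00266 to 1.01) for MLL-ENL over Control and 8.14-fold (1.13 to 357) for the Skida1-deleted library over MLL-ENL, rest on that single UMI.

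Cbx7 encodes the main CBX protein of mouse embryonic stem cells. Stem-like Cbx7 was at 8.41 CPM in the Skida1-deleted library, 7.47 CPM in MLL-ENL and 6.91 CPM in Control, and the intervals of all 3 overlap. In granulocyte cells it was at 4.18 CPM in the Skida1-deleted library, 4.25 CPM in MLL-ENL and 2.06 CPM in Control. Both fusion libraries were called higher there, at 2.03-fold (1.01 to 4.54) for the Skida1-deleted library and 2.07-fold (1.02 to 4.63) for MLL-ENL over Control, on 10 UMIs in Control. These calls held under 5 of 15 alternatives for the Skida1-deleted library and 6 of 15 for MLL-ENL, and neither direction held under all of them. Within cluster 9 the folds over Control were 1.38 (0.498 to 3.79) in the Skida1-deleted library and 1.41 (0.508 to 3.87) in MLL-ENL. In erythroid cells Cbx7 was at 2.57 CPM in the Skida1-deleted library, 3.22 CPM in MLL-ENL and 3.77 CPM in Control, with no call.

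Of the catalytic pair, Rnf2 encodes the main ubiquitin ligase of PRC1 in mouse embryonic stem cells and Ring1 its paralog. Rnf2 was at 25.4 CPM in the Skida1-deleted library, 33.8 CPM in MLL-ENL and 39.9 CPM in Control in megakaryocyte cells. It was called lower in the Skida1-deleted library than in Control there, at 0.635-fold (0.526 to 0.769), and the fold over MLL-ENL was 0.751 (0.640 to 0.881). That call held under 6 of 16 alternatives and the direction under all 16. Its fold was 0.561 (0.410 to 0.769) within cluster 4 and 0.682 (0.537 to 0.872) within cluster 11. Within granulocyte cluster 9 Rnf2 was at 18.8 CPM in the Skida1-deleted library, 20.3 CPM in MLL-ENL and 32.3 CPM in Control, and both fusion libraries were lower there than the sums show, at 0.583-fold (0.419 to 0.801) and 0.628-fold (0.455 to 0.858) of Control. In stem-like cells Rnf2 was at 32.5 CPM in the Skida1-deleted library, 35.8 CPM in MLL-ENL and 33.0 CPM in Control, and the intervals bound the fold of MLL-ENL over Control to between 0.967 and 1.22. Ring1 had no call in any summed lineage and comparison, while in basophil-mast cells 2 of 15 alternatives gave one for MLL-ENL over Control and 1 of 15 for the Skida1-deleted library over Control. Its erythroid level was 22.8 CPM in the Skida1-deleted library, 21.4 CPM in MLL-ENL and 27.2 CPM in Control, and its stem-like level was 20.4 CPM in the Skida1-deleted library, 17.4 CPM in MLL-ENL and 17.0 CPM in Control.

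Bmi1 had no call in any summed lineage and comparison. Stem-like Bmi1 was at 24.6 CPM in the Skida1-deleted library, 26.4 CPM in MLL-ENL and 27.2 CPM in Control. The intervals place the fold of MLL-ENL over Control between 0.851 and 1.11 and that of the Skida1-deleted library over MLL-ENL between 0.814 and 1.07. The widest gap of Bmi1 was in basophil-mast cells, with 18.3 CPM in the Skida1-deleted library, 24.7 CPM in MLL-ENL and 16.8 CPM in Control, on 72 UMIs in the Skida1-deleted library, 88 in MLL-ENL and 44 in Control. There 4 of 15 alternatives gave a call for MLL-ENL over Control, with log2 ratios of up to 1.27, 2 of 15 gave one for the Skida1-deleted library over Control, and the fold within cluster 8 was 1.53 (1.04 to 2.29). In granulocyte cells 3 of 16 alternatives gave a call for the Skida1-deleted library over Control, down to a log2 ratio of -1.09. Within granulocyte cluster 9 Bmi1 was at 14.7 CPM in the Skida1-deleted library, 21.0 CPM in MLL-ENL and 24.9 CPM in Control, a fold of 0.590 (0.405 to 0.846) for the Skida1-deleted library over Control.

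Of the variant PRC1 genes, Pcgf6 was lower in MLL-ENL than in Control in all 5 lineages. It was called in stem-like cells alone, where 13.5% of all genes were called lower. In basophil-mast cells its log2 ratio was -0.193, where the median of all genes was -0.148, and the sign held under 12 of 15 alternatives. Within cluster 8 the interval of its fold of 0.8825 (0.5617 to 1.394) holds 1. PCGF6 is the subunit of the variant complex that holds MGA, MAX and E2F6, known in mouse for silencing germ cell genes. Stem-like Pcgf6 was at 22.5 CPM in the Skida1-deleted library, 18.6 CPM in MLL-ENL and 29.7 CPM in Control. MLL-ENL was the lowest of the 3, at 0.628-fold (0.543 to 0.724) of Control, and the Skida1-deleted library lay between, at 1.21-fold (1.04 to 1.41) of MLL-ENL without a call. The call for MLL-ENL over Control held under 5 of 16 alternatives, and the direction under all 16. In erythroid cells Pcgf6 was at 36.8 CPM in the Skida1-deleted library, 32.5 CPM in MLL-ENL and 46.7 CPM in Control, with a fold of 0.695 (0.668 to 0.724) for MLL-ENL over Control. In Control stem-like cells Pcgf6 was at 44.4 CPM in S against 22.3 CPM in G1, a fold of 1.99 (1.58 to 2.52), whereas S over G1 was 1.12 in both fusion libraries, with intervals of 0.871 to 1.42 in the Skida1-deleted library and 0.842 to 1.48 in MLL-ENL. In stem-like S cells Pcgf6 was at 24.3 CPM in the Skida1-deleted library, 21.4 CPM in MLL-ENL and 44.4 CPM in Control. In G1 cells it was at 21.8 CPM in the Skida1-deleted library, 19.1 CPM in MLL-ENL and 22.3 CPM in Control. The fold of MLL-ENL over Control was 0.481 (0.374 to 0.613) in S cells, 0.748 (0.558 to 0.992) in G2M cells and 0.853 (0.651 to 1.12) in G1 cells, where its interval holds 1. Within granulocyte cluster 9 Pcgf6 was at 21.2 CPM in the Skida1-deleted library, 23.4 CPM in MLL-ENL and 33.4 CPM in Control, with a fold of 0.635 (0.465 to 0.860) for the Skida1-deleted library over Control, beside 0.741 (0.604 to 0.913) in the sum.

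Pcgf5 encodes the PCGF subunit of the variant complexes that also hold AUTS2 and casein kinase. Granulocyte Pcgf5 was at 88.6 CPM in the Skida1-deleted library, 91.9 CPM in MLL-ENL and 124 CPM in Control, and megakaryocyte Pcgf5 at 49.8 CPM in the Skida1-deleted library, 49.8 CPM in MLL-ENL and 72.5 CPM in Control. Both fusion libraries were below Control without overlap, at 0.739-fold (0.665 to 0.821) and 0.687-fold (0.594 to 0.795) for MLL-ENL over Control in granulocyte and megakaryocyte cells, under the size of a call. Within megakaryocyte cluster 4 both were further below Control, at 0.608-fold (0.485 to 0.764) in the Skida1-deleted library and 0.566-fold (0.442 to 0.725) in MLL-ENL. Cluster 11 held most megakaryocyte cells of each library, and there both were nearer to Control than in the sums. The folds in it were 0.735 (0.617 to 0.878) in the Skida1-deleted library and 0.759 (0.6325 to 0.913) in MLL-ENL. In erythroid cells the low library was the Skida1-deleted one, with 26.1 CPM against 33.9 CPM in MLL-ENL and 32.8 CPM in Control.

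Pcgf1 is the PCGF subunit of the BCOR complex with KDM2B, which binds unmethylated CpG islands. Erythroid Pcgf1 was at 3.70 CPM in the Skida1-deleted library, 4.57 CPM in MLL-ENL and 6.99 CPM in Control, with no overlap of the intervals. The Skida1-deleted library was called lower than Control, at 0.530-fold (0.472 to 0.594), and MLL-ENL was at 0.654-fold (0.587 to 0.728). In megakaryocyte cells Pcgf1 was called lower in the Skida1-deleted library than in Control at 0.573-fold (0.350 to 0.954), on 45 UMIs in the Skida1-deleted library and 28 in Control. That call held under 6 of 16 alternatives, with log2 ratios of -1.18 to -0.065. In stem-like cells it was at 6.69 CPM in the Skida1-deleted library, 7.54 CPM in MLL-ENL and 6.36 CPM in Control.

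**Figure D4:**
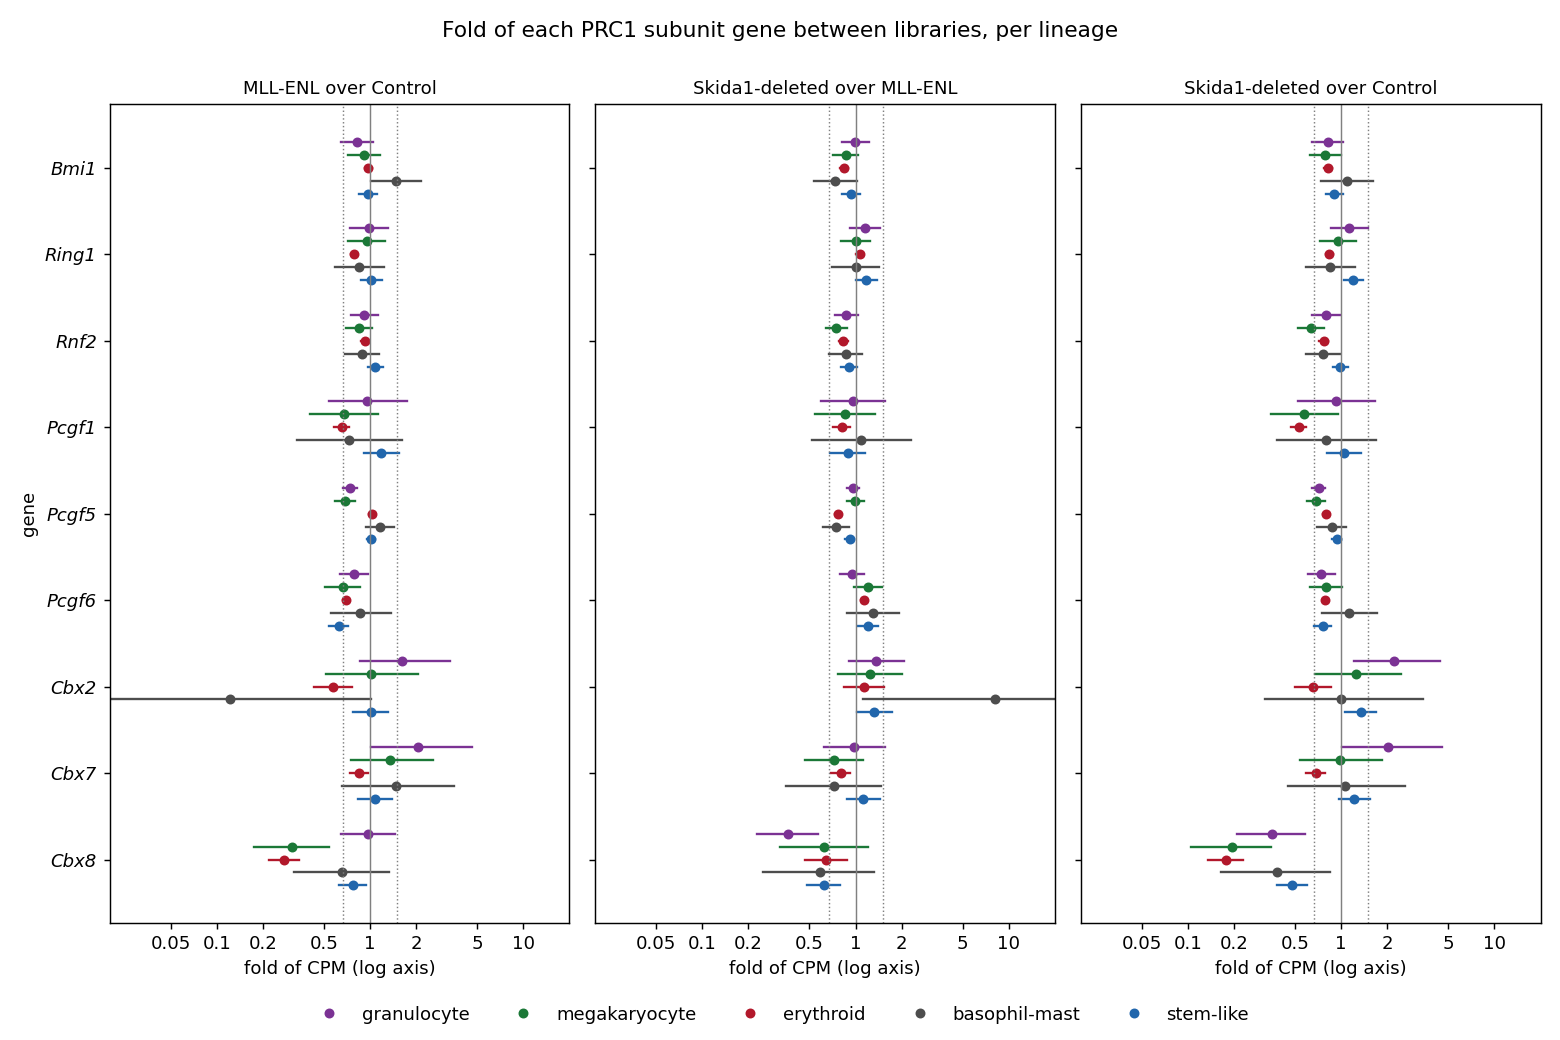
Fold of CPM for each gene (rows) and lineage (colours) in the 3 comparisons, on a log axis cut at 0.02 and 20, with exact conditional binomial 95% intervals for counting error; dotted lines mark 1.5-fold either way. The points of Bmi1 and Ring1 lie inside the dotted lines throughout, the intervals of basophil-mast Cbx2 run past the axis, and Cbx8 is the gene whose folds lie to the left in all 3 panels, down to 0.178 in erythroid cells for the Skida1-deleted library over Control.

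Counted over the 9 genes and 5 lineages, 1 of the 45 pairs was called higher and 4 lower in MLL-ENL over Control, beside 8.18% and 15.1% of all measured gene and lineage pairs. In the Skida1-deleted library over MLL-ENL 1 pair was called higher and 3 lower, beside 2.01% and 1.86%. In the Skida1-deleted library over Control 2 were called higher and 8 lower, beside 9.61% and 18.7%. With the same minimum of 5 CPM as that background, 0 of 36 pairs were higher and 2 lower (5.56%) for MLL-ENL over Control, 0 of 32 higher and 2 lower (6.25%) for the Skida1-deleted library over MLL-ENL, and 1 of 36 higher and 7 lower (19.4%) for the Skida1-deleted library over Control. By lineage, the shares of all genes called higher and lower for MLL-ENL over Control were 8.59% and 13.5% in stem-like, 13% and 18.9% in granulocyte, 6.38% and 15.1% in megakaryocyte, 4.85% and 10.5% in erythroid, and 7.75% and 16.9% in basophil-mast cells. For the Skida1-deleted library over MLL-ENL they were 1.54% and 1.15% in stem-like, 1.98% and 1.49% in granulocyte, 1.69% and 1.2% in megakaryocyte, 0.847% and 0.762% in erythroid, and 3.9% and 4.6% in basophil-mast cells. For the Skida1-deleted library over Control they were 9.66% and 16.3% in stem-like, 14.6% and 22.7% in granulocyte, 8.05% and 17.7% in megakaryocyte, 6.62% and 15.7% in erythroid, and 8.87% and 20.9% in basophil-mast cells. Both of the lower pairs at that minimum in the Skida1-deleted library over MLL-ENL were Cbx8. The median log2 ratio of the members in stem-like cells was 0.03 for MLL-ENL over Control, where that of all genes was -0.08, and -0.10 for the Skida1-deleted library over MLL-ENL, where that of all genes was -0.03. Against Control, the members' shares lie near or below those of all genes.

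The lineages differed more than the libraries for several members. Pcgf5, Cbx2, Cbx7, Cbx8 and Rnf2 were lower in erythroid than in stem-like cells by at least 1.5-fold in all 3 libraries, and Pcgf6 was higher. Of the 9 genes, 1 was called higher and 7 lower in erythroid over stem-like cells in the Skida1-deleted library, beside 16.0% and 36.3% of all genes. In MLL-ENL 1 was higher and 6 were lower, beside 16.8% and 36.1%, and in Control 2 were higher and 5 lower, beside 13.3% and 31.0%. Cbx8 was at 0.0832-fold (0.0610 to 0.113) of its stem-like level in erythroid cells of the Skida1-deleted library, 0.0801-fold (0.0621 to 0.103) in those of MLL-ENL and 0.225-fold (0.192 to 0.265) in those of Control. Cbx2 was likewise at 0.0870-fold in the Skida1-deleted library, 0.101-fold in MLL-ENL and 0.178-fold in Control. Pcgf5 was at 0.276-fold in the Skida1-deleted library, 0.329-fold in MLL-ENL and 0.324-fold in Control. None of the members was called higher in the other 3 lineages over stem-like cells. In granulocyte cells 3 were lower in the Skida1-deleted library (all genes: 3.1% higher and 14.5% lower), 2 in MLL-ENL (3.63% and 15.9%) and 3 in Control (7.3% and 21.9%). In megakaryocyte cells 5 were lower in the Skida1-deleted library (6.44% and 16.5%), 4 in MLL-ENL (6.99% and 18.0%) and 3 in Control (7.8% and 14.5%). In basophil-mast cells 4 were lower in the Skida1-deleted library (5.22% and 16.3%), 4 in MLL-ENL (6.53% and 16.9%) and 6 in Control (9.55% and 15.6%).

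The RING genes stood apart from each other. Rnf2 was lowest in erythroid cells in all 3 libraries, at 13.8 CPM in the Skida1-deleted library, 16.6 CPM in MLL-ENL and 18.0 CPM in Control, and its top value was in basophil-mast cells, at 33.2 CPM in the Skida1-deleted library, 38.4 CPM in MLL-ENL and 43.5 CPM in Control. The step from these to the next lineage was within counting error in all 3 libraries. Ring1 was highest in erythroid cells in each, by 1.11-fold over stem-like cells in the Skida1-deleted library, 1.23-fold in MLL-ENL and 1.60-fold in Control. Its step to the next lineage was larger than counting error in the Skida1-deleted library alone of the 3. Pcgf6 was ordered erythroid, granulocyte, stem-like, megakaryocyte and basophil-mast from high to low in all 3 libraries. Its first step was larger than counting error in each, whereas granulocyte and stem-like cells did not differ beyond it in the Skida1-deleted library and in Control. Bmi1 was highest in stem-like cells in all 3, at most 1.62 times the lowest lineage, and its step to the next lineage was larger than counting error in the Skida1-deleted library but not in MLL-ENL or Control. Cbx2, Cbx7 and Cbx8 were highest in stem-like cells in each library. For Cbx2 and Cbx8 the step to the next lineage was larger than counting error in all 3, and for Cbx7 in the Skida1-deleted library.

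**Figure D5:**
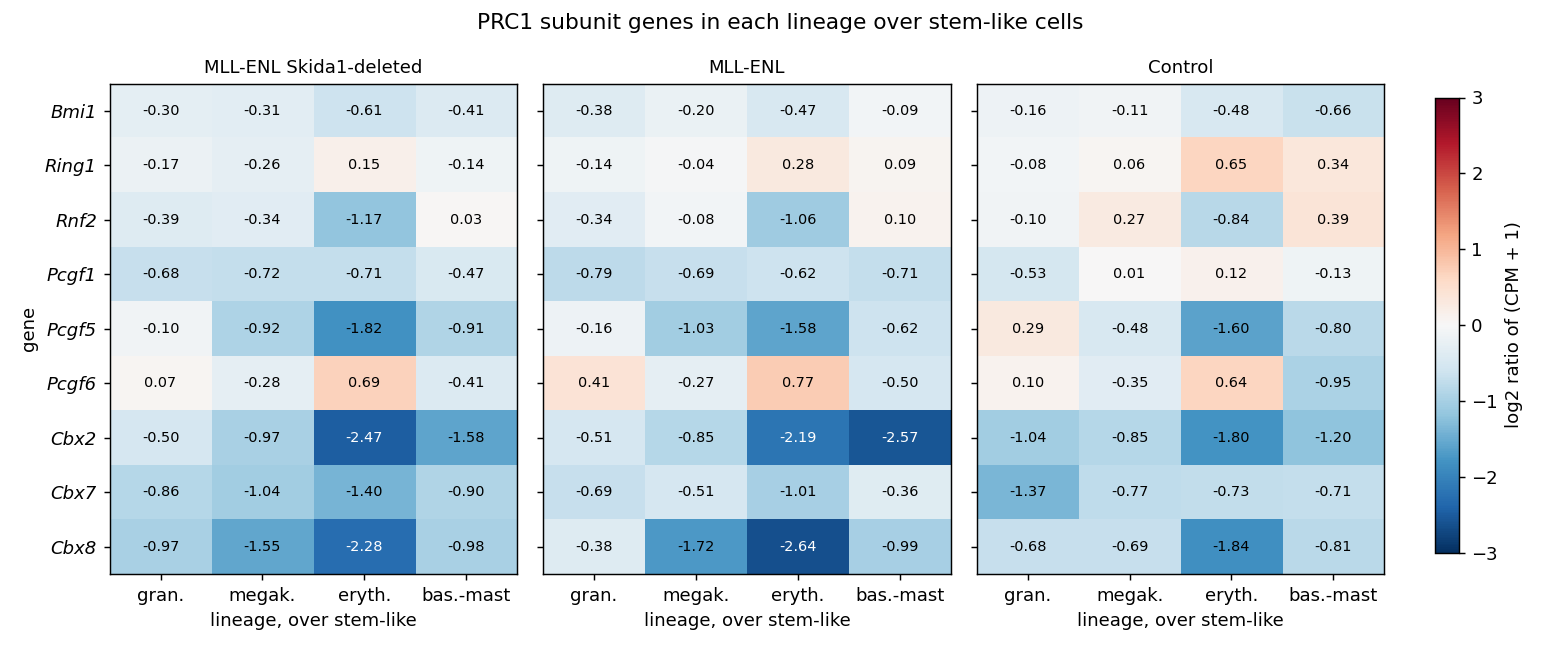
Log2 ratio of (CPM + 1) of each gene (rows) in 4 lineages over stem-like cells (columns), with a panel for each library and the value in each cell. Erythroid Cbx8 is at -2.28 in the Skida1-deleted library, -2.64 in MLL-ENL and -1.84 in Control, and the basophil-mast Cbx2 value of MLL-ENL (-2.57) rests on 1 UMI, while erythroid Pcgf6 is red in all 3 panels.

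Across the 15 sums of a library and a lineage, Pcgf5 and Cbx8 had the most alike log2 levels among the members (r = 0.837), and Rnf2 and Pcgf6 the most opposed (r = -0.746). These sums share libraries, depth and lineages, so r is a description. Among 8966 genes, those most like each member were Golga7 (r = 0.970), Bri3 and Tmem59 for Cbx8, Selp (0.948), Nmi and Dnmt3b for Cbx2, and Ssbp2 (0.947), Brd2 and Gem for Cbx7. For Bmi1 they were Immp2l (0.925), Tmbim1 and Cul3, for Ring1 Slc25a44 (0.887), Golm1 and St3gal5, and for Rnf2 Pink1 (0.969) and Ccdc12. For Pcgf1 they were Faf2 (0.885), Dcaf8 and Tbp, for Pcgf5 Ldhb (0.975), Stk26 and Bex6, and for Pcgf6 Mrps10 (0.949), Wdr18 and Zmynd19.

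Other genes of the PRC1 pathway were read from lists. Of 23 variant PRC1 subunit genes, 4 were called higher and 0 lower in stem-like cells of MLL-ENL over Control, where 8.59% of all genes were higher and 13.5% lower, with a median log2 ratio of 0.12. Auts2, the partner of PCGF5 and PCGF3, was the furthest, with 28.8 CPM in the Skida1-deleted library, 19.6 CPM in MLL-ENL and 5.86 CPM in Control in stem-like cells. Its fold over Control was 4.91 (4.01 to 6.04) in the Skida1-deleted library and 3.34 (2.69 to 4.17) in MLL-ENL. Csnk2a1, a casein kinase subunit of the same complexes, was called higher than in Control in both fusion libraries in all 5 lineages, with folds of 2.16 to 2.496 in the Skida1-deleted library and 1.57 to 1.91 in MLL-ENL. In granulocyte cells 4 of the 23 variant genes were higher and 4 lower in MLL-ENL over Control, beside 13% and 18.9% of all genes. Among them were L3mbtl2 and Tfdp1 of the PCGF6 complex, at 0.535-fold (0.421 to 0.680) and 0.551-fold (0.4998 to 0.608). Another was Rybp, a subunit of variant complexes in place of CBX, at 1.79-fold (1.33 to 2.44).

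Of the 7 other canonical subunit genes, 0 were higher and 1 lower in stem-like cells of MLL-ENL over Control. Of all genes, 8.59% were higher and 13.5% lower there. The 1 lower was Pcgf2, the paralog of Bmi1, with 5.02 CPM in the Skida1-deleted library, 2.95 CPM in MLL-ENL and 5.02 CPM in Control. It was also the 1 member of that list called in the Skida1-deleted library over MLL-ENL, at 1.70-fold (1.18 to 2.48). The Polyhomeotic gene Phc1 was at 2.15-fold (1.37 to 3.49) in the Skida1-deleted library and 1.85-fold (1.17 to 3.04) in MLL-ENL over Control in granulocyte cells. Of the 6 genes for H2A deubiquitinases and their partners, which remove the mark that PRC1 places, none was called in stem-like cells in any of the 3 comparisons. Of all genes, 1.54% to 9.66% were called higher and 1.15% to 16.3% lower there. Bap1 was called higher in megakaryocyte cells, at 1.57-fold (1.15 to 2.17) in the Skida1-deleted library and 1.73-fold (1.26 to 2.41) in MLL-ENL over Control. Of all genes, 8.05% and 6.38% were called higher there. Granulocyte Usp21 was called higher over Control, on 19 UMIs in Control. Its folds were 1.69 (1.01 to 2.98) in the Skida1-deleted library and 1.66 (0.978 to 2.94) in MLL-ENL, beside 14.6% and 13% of all genes. Basophil-mast Usp21 was called at 0.619-fold (0.2975 to 1.27) for MLL-ENL over Control and 1.64-fold (0.861 to 3.23) for the Skida1-deleted library over MLL-ENL.

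Of 8 genes known as PRC1 targets, only some reached 5 CPM in either library for MLL-ENL over Control. These were 5 in stem-like, 4 in granulocyte, 4 in megakaryocyte, 2 in erythroid and 3 in basophil-mast cells. Hoxa9 and Hoxa10 were the ones called higher, in all 5 lineages, with 0 Hoxa10 UMIs in Control granulocyte cells. Of all genes, between 4.85% (erythroid) and 13% (granulocyte) were called higher in a lineage. The part of PRC1 in the rise of Hoxa9 and Hoxa10 was not tested. Erythroid Hoxa9 was at 35.4 CPM in the Skida1-deleted library and 36.9 CPM in MLL-ENL, against 3.17 CPM in Control. Between the fusion libraries none of the 2 to 5 measured targets was called in stem-like, granulocyte, megakaryocyte or erythroid cells, and 1 of 4 in basophil-mast cells. That was Hoxa10, with 9.64 CPM in the Skida1-deleted library and 5.89 CPM in MLL-ENL, and the interval of its fold of 1.64 (0.936 to 2.93) holds 1. The S phase and G2M lists differed as well. For MLL-ENL over Control 18 of 22 G2M genes were lower in stem-like cells and 21 of 22 in granulocyte cells. Of all genes, 13.5% were lower in the stem-like and 18.9% in the granulocyte cells. The part of these lists in the ratios of the members was not tested apart from the values within phases above.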

How the data were processed

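The authors deposited raw UMI counts per gene and cell barcode, with no normalization, for 32285 genes and 10 antibody tags, the tags not being used here. Cell Ranger is given as 6.1.2 per the file headers and as 6.0.1, with build mm10, per the submitters' processing notes. Gene UMIs totalled 207395090 in the Skida1-deleted library, 198773992 in MLL-ENL and 180656900 in Control. A barcode counted as a cell from 1000 UMIs and 500 genes upwards, if mitochondrial UMIs stayed below 10%. Scrublet (scanpy 1.11.5) removed 558 doublets in the Skida1-deleted library and 391 in Control. In MLL-ENL it called 0, and the 994 highest scores were removed, at 0.8% per 1000 cells. The 3 libraries were clustered together without integration by the Leiden method (resolution 1.0, 30 principal components of 2000 variable genes, 15 neighbours), and mitochondrial, ribosomal, sex-linked and Polycomb genes could not be variable genes. Naming went by the marker list best represented in a cluster's top 50 genes, if at least 3 of its markers reached 1.5-fold and no other list led the top 10. The unnamed cluster held 622 cells of the Skida1-deleted library, 623 of MLL-ENL and 4 of Control.

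UMIs were summed per library and lineage and scaled to CPM, and ratios used a pseudocount of 1 CPM. Shares of all genes are over those at 5 CPM or more in either sum. Genes named from other lists were at most 4 per comparison and lineage, with the furthest ratios past 1.5-fold at 5 CPM or more. The 3 genes most like a member were sought among those at 5 CPM or more in at least 5 of the 15 sums. For Rnf2 1 of these is not reported here. The ratio, its interval and the call were tested on simulated data. The members, lists and comparisons were chosen with earlier results of these data known. There were 15 alternatives, and 1 more, without the low-depth clusters, was added after seeing the data. TMM factors came from edgeR 4.0.16. Cells of 1 library are not replicates, so no p-value was computed.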

Additional observations from a re-analysis of the deposited data

How the results depend on the processing

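The direction of Cbx8 held under every alternative run for the Skida1-deleted library over MLL-ENL (log2 ratios of -1.59 to -0.706 in granulocyte and -0.754 to -0.427 in stem-like cells) and over Control in all 5 lineages. For MLL-ENL over Control it held in erythroid and megakaryocyte cells, whereas it ranged from -0.596 to 0.039 in stem-like and from -1.21 to 0.104 in granulocyte cells. Against Control, TMM and median-of-ratios factors moved the median log2 ratio of all genes by at most 0.178 and 0.155.

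Counts of pairs, higher first and lower second, were 1 and 4 for MLL-ENL over Control, 1 and 3 for the Skida1-deleted library over MLL-ENL, and 2 and 8 for the Skida1-deleted library over Control; those that moved by over 1.5 times follow. For MLL-ENL over Control, the higher count was 3 with TMM or median-of-ratios factors, 6 with cells thinned to 3000 UMIs, 4 with the strict cell filter or cells called G1, 2 at resolution 1.5, and 0 with a pseudocount of 5 CPM, members under 5 CPM left out, the expected doublet rate, resolution 0.5, clusters named without cell cycle and fusion-raised markers, the nearest Control cells, the marker score, or stem-like and granulocyte cells summed. Its lower count was 1 with a pseudocount of 5 CPM, 2 with members under 5 CPM left out and 7 with the strict filter. For the Skida1-deleted library over MLL-ENL, the higher count was 0 with a pseudocount of 5 CPM, members under 5 CPM left out, resolution 0.5 or the nearest Control cells, 2 at the expected doublet rate, resolution 1.5, the marker score or G1 cells, and 3 without cell cycle and fusion-raised markers. Its lower count was 8 with thinned cells, 1 with a pseudocount of 5 CPM and 5 in G1 cells. For the Skida1-deleted library over Control, the higher count was 6 with thinned cells, 4 in G1 cells, 1 with members under 5 CPM left out, no doublet removal, the expected doublet rate or the marker score, and 0 with a pseudocount of 5 CPM, resolution 0.5, the nearest Control cells or stem-like and granulocyte cells summed. Its lower count was 4 with a pseudocount of 5 CPM. At resolution 0.5 the basophil-mast class was too small and 36 pairs remained.

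Called ratios that changed sign were Cbx7 in granulocyte cells of MLL-ENL over Control (-0.056 thinned, -0.195 by marker score, -0.221 in G1 cells) and of the Skida1-deleted library over Control (-0.221 in G1 cells), Cbx2 in basophil-mast cells of MLL-ENL over Control (0.211 at resolution 1.5, 0.221 without those markers), and Cbx2 in granulocyte cells of the Skida1-deleted library over Control (-0.714 at resolution 0.5). The cause was not tested. No paired analysis was possible because each group is 1 library, which also leaves no replicate to leave out. In basophil-mast cells Pcgf1, Cbx2, Cbx7 and Cbx8 had 1 to 20 UMIs per library, which limits their folds there.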

Other observations

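Outside the 5 lineages, B-lineage-like cells were few but held Cbx2 at levels near or above those of stem-like cells: 16.5 CPM (6.05 to 35.9) in the Skida1-deleted library, 21.8 CPM (10.9 to 39.0) in MLL-ENL and 7.32 CPM (0.887 to 26.4) in Control, on 6 UMIs in the Skida1-deleted library, 11 in MLL-ENL and 2 in Control. Cbx8 had 0 UMIs in those cells of the Skida1-deleted library, 2 in MLL-ENL and 3 in Control. In the unnamed cluster, which only the fusion libraries filled, Pcgf6 was at 37.8 CPM in the Skida1-deleted library and 32.5 CPM in MLL-ENL, close to the erythroid levels, and Cbx8 at 0.990 CPM in the Skida1-deleted library and 1.61 CPM in MLL-ENL. Eosinophil-like cells held Rnf2 at 57.3 CPM (35.5 to 87.6) in the Skida1-deleted library, 52.7 CPM (27.2 to 92.0) in MLL-ENL and 66.1 CPM (39.2 to 104.5) in Control, on 21 UMIs in the Skida1-deleted library, 12 in MLL-ENL and 18 in Control.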
